A study of Mus musculus with 12 samples.

Results

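Pericentral hepatocytes were examined directly after their isolation from the liver by collagenase perfusion, as single nuclei. The nuclei were chosen on measured values. Among nuclei that the authors' table named isolated hepatocytes in Cell Suspension (CS) and that held at least 2000 unique molecular identifiers (UMIs, 1 per captured RNA molecule), a score was computed as the log2 ratio of UMIs of 8 pericentral genes (Cyp2e1, Cyp1a2, Slc1a2, Glul, Oat, Lgr5, Tbx3 and Cyp2c29) to UMIs of 8 periportal genes (Hal, Cyp2f2, Gls2, Hsd17b6, Etnppl, Sds, Amdhd1 and Cryl1), each plus 1. The top 25% of each sample were taken as pericentral nuclei, 2407 of 9636 scored nuclei. These came from 12057 isolated hepatocyte nuclei among 15049 CS nuclei, and the whole series held 53467. The bottom 25% of each sample, also 2407 nuclei, are called periportal nuclei, and the same rule gave 3214 pericentral and 3214 periportal nuclei from 12868 scored hepatocyte nuclei of intact liver tissue (Liver, L).

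The study followed hepatocytes of 8 mice from tissue (L) through isolation (CS) to 24 hours of culture (Primary Hepatocytes, PH), 24 samples in all, by droplet-based single-nucleus RNA sequencing. In each mouse the median lobe was tied off and frozen before the rest of the same liver was perfused with collagenase, so that L and CS of 1 number share an animal, and the CS cells were pelleted and frozen without culture. All animals were wild-type males of 10 to 12 weeks without further treatment, given as C57BL6J in the sample labels and as C57BL/6NTac in the study's methods. Nuclei of 4 samples at a time were marked with hashtag antibodies and mixed in 6 pools, so that the CS samples lay in all 6 pools and the L samples in 4 of them (pools 1, 2, 5 and 6).

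In the liver lobule, blood flows from the portal tract to the central vein, and hepatocytes divide metabolic work along this path. Hepatocytes around the central vein receive Wnt ligands from central vein endothelium and run drug metabolism by cytochromes P450, glutamine synthesis and the first step of bile acid synthesis. Hepatocytes near the portal tract carry out most gluconeogenesis, urea synthesis and amino acid breakdown.

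The number of pericentral nuclei was 292, 270, 210, 591, 265, 439, 69 and 271 in mice 1 to 8. The lowest score that still entered differed between mice, from 1 in mouse 7 to 3.95 in mouse 4, and the next nucleus below it scored the same in 7 mice and 2.22 against 2.30 in mouse 1. The last nucleus to enter held 5 pericentral and 2 periportal UMIs in mouse 7 and 30 and 1 in mouse 4. Between 11 nuclei (mouse 7) and 330 nuclei (mouse 4) lay within 0.5 of the limit. The median pericentral nucleus held 17 to 63 UMIs of the 8 pericentral genes and 0 or 1 UMI of the 8 periportal genes, and between 34.8% (mouse 7) and 71.5% (mouse 2) of the nuclei held no periportal UMI. Of the 5 CS hepatocyte clusters in the authors' table, cluster 10 held 41.6% of the pericentral nuclei and none of the periportal ones. Cluster 4 held 3.28% of the pericentral against 39.9% of the periportal nuclei. The other clusters held both, with 29.3% against 29.2% in cluster 2, 17.4% against 22.1% in cluster 7 and 8.39% against 8.77% in cluster 21. The deposited table holds nuclei that the authors had already cleared of hashtag and transcriptome doublets, and no further doublet caller was run. A barcode that also occurs in another pool was found for 24 of the pericentral nuclei.

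Pericentral nuclei of at least 2000 UMIs held fewer UMIs than periportal nuclei after isolation in 7 of 8 mice. Their median UMI count per nucleus was 3097 in the lowest mouse, 3999.5 in the median and 12634 in the highest, against 4557, 6299.8 and 9805 in periportal nuclei. The ratio of the 2 medians was 0.537 to 0.758 in 7 mice and 1.57 in mouse 3, which stood apart from the other mice. With all 8 mice the difference was not called (two-sided exact paired permutation test, p = 0.18), and without mouse 3 it was -2395 UMIs ± 1315 (SD, n = 7; exact permutation, adjusted p = 0.0573), lower in every remaining mouse. Among nuclei of at least 4000 UMIs the difference turned to 300.5 UMIs and was not called (exact permutation adjusted p = 0.984). In L the order was the other way in 7 of 8 mice, with medians of 7642.5, 10583 and 16520 in pericentral and 7419.5, 9869.5 and 13602 in periportal nuclei. The difference of the change from L to CS between the zones, -2648 UMIs ± 2182.2 (SD, n = 8), did not pass the test (exact p = 0.0234, adjusted p = 0.0688 over 11 measures). Since the nuclei were chosen with a floor on UMIs, these counts are given as a description.

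Unspliced RNA, the unprocessed form that is found mainly in the nucleus, made up a smaller share of UMIs in pericentral than in periportal nuclei of CS. The unspliced share of UMIs in pericentral nuclei was 55.7%, 61.3% and 73.7% (lowest, median and highest mouse), against 66%, 69.2% and 71.1% in periportal nuclei. It was lower in 7 of 8 mice, by 6.98 percentage points ± 4.56 (SD, n = 8; exact permutation p = 0.0156, adjusted p = 0.043), and higher in mouse 3. In L the share was 72.7%, 74.7% and 78.2% against 72.8%, 73.6% and 76.2%, higher in pericentral nuclei in 7 of 8 mice. Within CS the ratio of pericentral to periportal median counts was 0.457 to 0.708 for unspliced and 0.73 to 0.988 for spliced UMIs outside mouse 3. With nuclei of at least 4000 UMIs only, the difference in unspliced share was -2.44 points ± 3.79 and was not called (exact permutation adjusted p = 0.258, n = 8), and with any 1 mouse left out no adjusted p was under 0.0573.

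**Figure D1:**
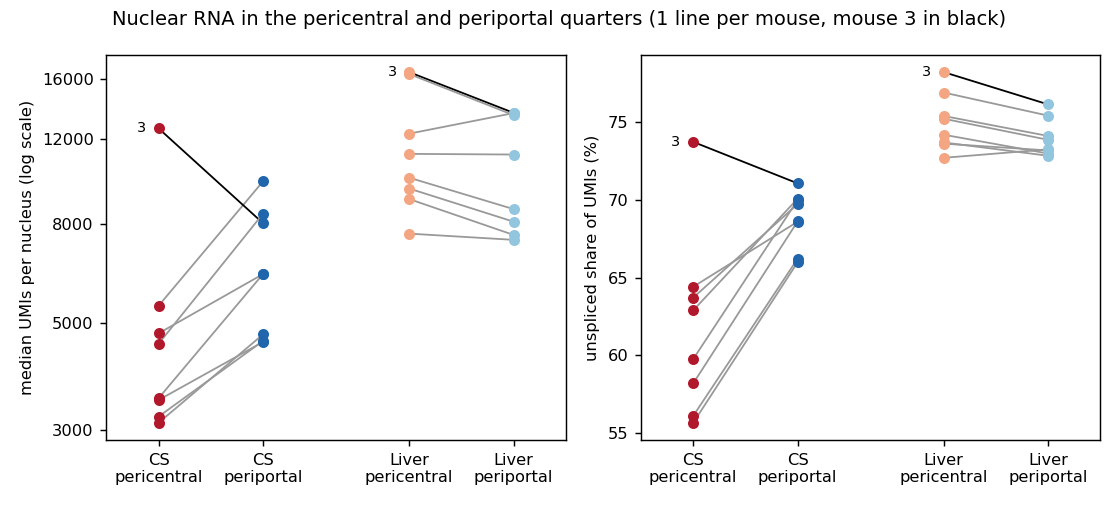
Median UMIs per nucleus (left, log scale) and unspliced share of UMIs in percent (right) in pericentral and periportal nuclei of Cell Suspension (CS) and Liver, with 1 line per mouse and mouse 3 in black. In CS the lines rise from pericentral to periportal nuclei in 7 of 8 mice, while in Liver they fall in 7 of 8 mice for both measures.

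The nuclei carried hepatocyte RNA, with low levels of markers of other cells. The summed hepatocyte markers (Alb, Apob, Ttr, Hnf4a, Apoa1 and Tat) stood at 4467, 7696 and 10966 CPM (UMIs scaled to the same total in each sum) in pericentral nuclei, lower than in periportal nuclei in 8 of 8 mice (exact permutation adjusted p = 0.043). Single members went both ways, since Alb was called lower (log2 -1.01 ± 0.09) and Apob higher (log2 0.41 ± 0.08), and the other 4 were not called. The 8 endothelial markers summed to 21.2, 42.5 and 60.8 CPM against 13.2, 26.7 and 36.4, higher in 7 of 8 mice (exact permutation adjusted p = 0.043), whereas in L the 2 zones did not differ (28.5 against 29.2 CPM in the median, adjusted p = 0.938). The 7 Kupffer cell markers summed to 12.4 against 6.85 CPM in the median and were higher in 7 of 8 mice (adjusted p = 0.12), and the 6 cholangiocyte markers to 114 against 148 CPM, lower in 7 of 8 mice (adjusted p = 0.043), each by the same exact permutation test with n = 8. The share of mitochondrially encoded UMIs, 0.113% and 0.109% in the median, did not pass the same exact permutation test (adjusted p = 0.634). The part of these other cells in the gene results was not tested.

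Of the genes that chose the nuclei, Cyp2e1 and Cyp2c29, cytochromes of drug metabolism, were the most widely seen. After each nucleus was thinned to 2000 UMIs, a Cyp2e1 UMI was present in 94.2%, 99% and 100% of pericentral nuclei (lowest, median and highest mouse), against 3.54% of periportal nuclei in the median and 13.8% of 435 endothelial nuclei, whose median depth was 3418 UMIs. Cyp2c29 was seen in 84.1% of pericentral nuclei in the median, against 1.03% of periportal and 8.05% of endothelial nuclei. Glul, the glutamine synthetase of the innermost layer of hepatocytes, was seen in 11.6%, 43.3% and 56.3%, with mouse 7 lowest, against 2.24% of periportal and 23.4% of endothelial nuclei. The remaining 5 genes were seen in 37.2% (Cyp1a2), 17.1% (the glutamate transporter Slc1a2), 16.9% (Oat), 16.7% (the Wnt pathway gene Lgr5) and 9.83% (Tbx3) of pericentral nuclei in the median, each above its share of endothelial nuclei, which was at most 2.99%. Without thinning, Cyp1a2 was seen in 62.9%, Lgr5 in 33.4% and Slc1a2 in 21.7%.

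The levels of these genes set beside those of pericentral nuclei in L are a description, since they chose the nuclei in both. Cyp2e1 stood at 2023, 2976 and 3876 CPM in CS and at 2078, 2400.5 and 3268 CPM in L, and Cyp2c29 at 985, 2081 and 3387 against 634, 1391 and 2189 CPM. For both genes the ranges overlapped widely. Slc1a2 stood at 20.3, 249.6 and 963 CPM in CS against 495, 1292 and 1662 CPM in L, and only 2 of the 8 CS values, those of mice 2 and 4, lay above the lowest L value. Lgr5 (133 against 223 CPM in the median) and Tbx3 (55 against 153 CPM) were also lower in CS in the median, Glul was nearly even (504 against 543 CPM) and Oat was higher (106 against 55.9 CPM). Over all cultured hepatocyte nuclei of at least 2000 UMIs (14266), no zonal choice being made, Cyp2e1 stood at 37.1 CPM and Cyp2c29 at 17.2 CPM in the median of 8 samples, against 1021 and 563 CPM over all scored CS nuclei.

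To test the 16 genes on values that had not chosen the nuclei, each gene was left out of the score in turn, and the sets were chosen anew by the other 15. Every gene was then called in its own direction, in 8 of 8 mice (edgeR quasi-likelihood test on sums per mouse, Benjamini-Hochberg adjusted over 16). Cyp2c29 was 110-fold higher (log2 6.78 ± 0.14 SE), Lgr5 84.7-fold, Slc1a2 59.4-fold and Cyp2e1 40-fold higher in the pericentral set, with the largest adjusted p among the 16 being 1.9e-58. Glul differed least among the pericentral genes, by 4.14-fold, with 85.6, 459 and 910 CPM against 16.1, 112 and 227 CPM. Among the periportal genes Sds was 89.5-fold and Hal 28.1-fold lower, and Amdhd1 differed least, 4.25-fold lower. Each gene thus differed in nuclei chosen by the other 15.

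The remaining genes were then compared between pericentral and periportal nuclei of the same CS samples. UMIs were summed per mouse and zone (467968 to 3408223 outside the 16 genes in pericentral nuclei) and fitted with edgeR's quasi-likelihood test with mouse as a block. Of 18138 genes tested, 3652 were called at an adjusted p under 0.05 (20.1%), 1833 higher (10.1%) and 1819 lower (10%) in pericentral nuclei. In L the same comparison called 4649 of 21246 genes (21.9%). In mice 1 to 6 and 8, 89.9% to 98% of the called genes differed in the called direction, and in mouse 7, which had 69 nuclei in each set, 77.5% did. The calls came from these same mice, so that this agreement was partly set by the call.

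All 26 listed pericentral genes outside the score were called higher, with a median log2 difference of 3.25, against 0.03 over all genes tested, and 24 of the 26 were called without mouse 3. The lists here and below were chosen with earlier results of these data known, so that their counts are no independent support. Some members were rare or mixed. Rhbg was seen in 0.373% of thinned pericentral nuclei in the median, and Nt5e, Gstm2 and Gstm3 were lower in pericentral nuclei of some mice. Cyp2c54, a cytochrome of the Cyp2c family, stood at 246, 466.1 and 656 CPM in pericentral and at 3.52, 6.41 and 46.3 CPM in periportal nuclei, 57.5-fold higher (log2 5.84 ± 0.14, adjusted p = 1.1e-87). Cyp7a1, the rate-limiting enzyme of bile acid synthesis, stood at 124, 229.7 and 730.3 CPM against 0.52, 2.92 and 31.8 CPM, 39.7-fold higher (log2 5.31 ± 0.15). Neither gene had overlapping ranges, which held for 1.76% of all genes tested. Cyp2a5 was 42.8-fold, Gulo, which makes vitamin C in rodents, 20.4-fold and the organic anion transporter Slco1b2 5.1-fold higher. Cyp2c genes are near-identical copies, so that reads may have been split among them. Because Cyp2c29 is a gene of the score, Cyp2c54 and other Cyp2c genes may hold some of its reads. Their differences are therefore not taken as independent of the score.

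Genes were also named by the size of their difference, whether listed or not, among called genes outside the score with the same direction in 8 of 8 mice (11% of all genes tested had it), so that this direction in every mouse was set by the choice. Cyp2c38 stood at 109.7, 303 and 1302 CPM against 1.03, 2.98 and 7.61 CPM, with mouse 3 far above the others, and was 100-fold higher (log2 6.64 ± 0.17). Aldh3a2, an aldehyde dehydrogenase of fatty aldehydes, was 75.2-fold higher, Cyp2c37 61.2-fold, the nuclear receptor Esrrg 52.9-fold, the retinol dehydrogenase Rdh9 52.3-fold and the adhesion protein Tenm3 47.3-fold. Cyp2c38 and Cyp2c37 may hold reads of their relative Cyp2c29, a gene of the score. Tbx3os1, which lies antisense to Tbx3, was named by the same rule, but because the counting strand is not given in the sources used here, its reads cannot be told apart from those of Tbx3, a gene of the score, and its difference is not read as a result. In the other direction, Hsd17b13, a lipid droplet protein, stood at 7.68, 18.1 and 30.7 CPM in pericentral and at 351, 425 and 499.8 CPM in periportal nuclei, 25.6-fold lower (log2 -4.68 ± 0.12). Gm15883 was 41.5-fold, the protease Ctsc 18.1-fold, the repressor of Wnt targets Tcf7l1 17.2-fold, the glutamate receptor Grm8 17-fold, the E-cadherin gene Cdh1 16.7-fold, the sulfatase Sulf2 15.9-fold and the semaphorin receptor Plxna2 15.7-fold lower.

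The Wnt pathway held called genes in both directions, 9 of 22 higher and 5 lower. Beside these counts and those of the receptors below, 10.1% of all genes tested were higher and 10% lower. Axin2, a target that feeds back on the pathway, stood at 13.3, 28.5 and 45 CPM against 0, 0.26 and 1.34 CPM (log2 5.87 ± 0.29, adjusted p = 2.9e-45). The ubiquitin ligase Rnf43, which removes Wnt receptors, was 3.45-fold higher, its relative Znrf3 1.31-fold, the extracellular Wnt inhibitor Notum 8.26-fold and the co-receptor Lrp5 2.61-fold. The genes called lower included Tcf7l1 and, by smaller differences, Tcf7l2, Fzd4, Lrp6 and Lgr4 (log2 -0.33 to -0.59). Of 10 receptors and targets of foreign compounds, 5 were higher and 2 lower. The dioxin receptor Ahr stood at 149, 249.6 and 415 CPM against 11.6, 17.9 and 32 CPM, 13.9-fold higher, and Nr1i3, the receptor CAR, was 16.8-fold higher, both without overlap. Ahr and Nr1i3 in L pericentral nuclei stood at 249 and 109 CPM in the median, against 249.6 and 106 CPM in CS.

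Of 60 tested cytochromes of families 1 to 4, 29 were higher and 5 lower in pericentral nuclei, and of 18 glutathione transferases 9 were higher and 0 lower. For these and the following counts, the shares over all genes tested were 10.1% higher and 10% lower. The counts called lower are not read as a result about the lists. Por, which passes electrons to the cytochromes, was 3.33-fold higher and Gsta3 2.74-fold. Of 17 genes of bile acid handling, 8 were higher, among them Cyp27a1 (3.12-fold) and Akr1c6 (6.3-fold), and 2 were lower, among them Cyp39a1 (10.3-fold). Of 17 genes of fatty acid oxidation 9 were higher and 1 was lower, with Pdk4, the kinase that shuts pyruvate dehydrogenase, 27.2-fold and Ppara 1.49-fold higher. Of 16 hypoxia genes, 6 were higher and 0 lower, with the oxygen sensor Egln3 at 6.36-fold and Pfkfb3 at 4.55-fold.

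The 18 listed periportal genes outside the score were lower in 15 cases and higher in 0, with a median log2 difference of -0.94, while in L all 18 were lower, with a median of -1.39. Of 8 gluconeogenic genes 6 were lower and 0 higher (median log2 -0.35), and of 9 urea cycle genes 5 were lower and 2 higher (median log2 -0.28). The shares over all genes tested in CS were 10% lower and 10.1% higher. The differences of Ass1, Pck1 and G6pc were small. Ass1, a urea cycle enzyme, stood at 921, 1776 and 3326 CPM in pericentral and at 899, 2278 and 3784 CPM in periportal nuclei (log2 -0.28 ± 0.08, adjusted p = 0.0069), lower in 6 of 8 mice, and the ranges overlapped nearly in full. Its call was lost in the DESeq2, 4000 UMI, unspliced, stricter expression filter and no-block alternatives and without mouse 4. Pck1, the first committed enzyme of gluconeogenesis, stood at 1931, 3076 and 4199 CPM against 2883, 3682 and 4493 CPM (log2 -0.32 ± 0.08), and G6pc, which releases free glucose, at 2416, 3211 and 4063 CPM against 2587, 2757 and 4296 CPM (log2 0.01 ± 0.08, adjusted p = 0.95). Larger differences within the same lists were held by Arg1 (log2 -0.97 ± 0.08), Fbp1 (log2 -1.14 ± 0.08), the coactivator Ppargc1a (log2 -2.09 ± 0.11) and Otc (log2 -0.84 ± 0.09). In lipogenesis 8 of 16 genes were lower, with Acly at 61.7, 182 and 268 CPM against 269, 797 and 1686 CPM (log2 -2.31 ± 0.09), and 4 were higher.

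**Figure D2:**
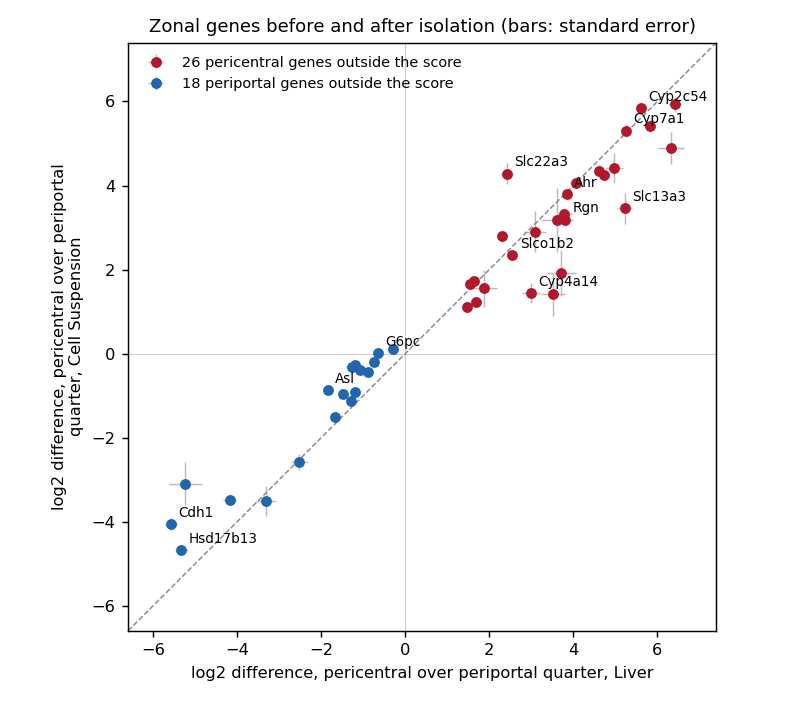
Log2 difference between pericentral and periportal nuclei in Liver (horizontal) and in Cell Suspension (vertical) for the 26 pericentral and 18 periportal genes outside the score, with standard errors as bars and equality as a dashed line. The pericentral genes lie between 1.12 and 5.93 in Cell Suspension, and the periportal genes lie above the dashed line in all cases but Apoa4 and Cyp17a1, with G6pc nearest to 0.

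Early-response genes, which are switched on soon after a stimulus without new protein, were mostly higher in pericentral nuclei. Of 20 early-response genes tested, 14 were called higher and 0 lower in pericentral nuclei, with a median log2 difference of 0.52, while in L 8 were higher and 6 lower. Over all genes tested 10.1% were higher and 10% lower in CS, and 10.7% and 11.2% in L. Fosb, a subunit of the AP-1 factor, stood at 173, 324 and 597 CPM against 26.5, 132 and 284 CPM, 3.14-fold higher in 8 of 8 mice (adjusted p = 2.8e-35). Maff was 2.94-fold, Gadd45b 3.16-fold, Jun 1.51-fold and Egr1 1.46-fold higher, and Atf3 and Fos differed by 1.3-fold and 1.31-fold. The ranges of all 7 genes overlapped between the zones. From unspliced UMIs alone 7 of the list were higher, and Egr1 (log2 -0.13) and Fos (log2 -0.12) turned their direction without a call. Klf2, called at log2 3.84 ± 0.88, reached at most 4.08 CPM and is also an endothelial gene, and the endothelial marker Egfl7 was called higher in the same nuclei (log2 1.73 ± 0.35). Of all 8 endothelial markers 4 were called higher and 0 lower there (median log2 0.81), and of 6 Kupffer cell markers tested 1 was higher and 0 lower.

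The heat-shock genes followed the same order, with 9 of 13 higher and 2 lower, beside 10.1% and 10% of all genes. In L 4 of the 13 were higher and 1 was lower in pericentral nuclei. The chaperone Hspa8 stood at 302, 428 and 561 CPM against 140, 249.9 and 356 CPM (log2 0.78 ± 0.09, adjusted p = 1.3e-14), and Dnajb1 at 24.3, 46.8 and 65.8 CPM against 4.68, 16.5 and 26.1 CPM (log2 1.49 ± 0.14). Dnaja1 was 2.16-fold and the small heat-shock protein Hspb1 4.71-fold higher, both without overlap. The counts hardly moved without mouse 3, at 14 early-response and 10 heat-shock genes higher. Without the mouse as a block 7 early-response and 6 heat-shock genes were called higher.

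The isolated pericentral nuclei were next compared with pericentral nuclei of L, chosen by the same rule without isolation. Both sets are the top 25% of their own sample, with lowest scores of 1 to 3.95 in CS and 2.68 to 4.09 in L, and whether they hold the same positions of the lobule was not tested. Of 20292 genes, 4048 were called (19.9%), 1662 higher (8.19%) and 2386 lower (11.8%) in CS. This fit did not pair L and CS by mouse, and with the mouse as a block 5476 were called, 2244 higher and 3232 lower. Early-response genes led the rise. Of 21 tested, 20 were higher and 0 lower, with a median log2 difference of 3.83 against -0.03 over all genes. Fosb lay between 0 and 1.94 CPM in L (median 0.706), log2 8.77 ± 0.35 below CS, and Fos rose from 0.697, 1.64 and 3.4 CPM to 258, 347 and 455 CPM (log2 7.69 ± 0.22). Atf3 rose from 2.79, 4.34 and 11.7 CPM to 516, 1117 and 1708 CPM (log2 7.67 ± 0.35), Egr1 from 10.6, 15.5 and 42.5 CPM to 874, 1096 and 1658 CPM (log2 5.99 ± 0.32) and Jun from 40, 60.8 and 88.5 CPM to 1407, 1891 and 3214 CPM (log2 5.1 ± 0.25). The ranges of Jun did not overlap, which held for 4.79% of all genes tested, and Fosb, Fos, Atf3 and Egr1 were among the genes named by size from those without overlap.

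Other named genes rose with them. Ier2 (55.5-fold) and the growth inhibitor Btg2 (48-fold) belong to the same list, while Actg1, a cytoskeletal actin, rose 36.5-fold from 8.01, 16.8 and 28.1 CPM to 375, 596 and 880.1 CPM. Metallothionein Mt1, which binds metals, rose 36.9-fold from 0.336, 6.81 and 13.6 CPM to 16.2, 156 and 690.5 CPM, with mouse 7 lowest and mouse 3 highest in CS. Of 13 heat-shock genes, 8 rose and 0 fell, beside 8.19% and 11.8% of all genes, with Dnajb1 at 21.2-fold and Hspa8 at 8.91-fold. Tiparp, a target of Ahr that also responds to other stress, rose 10.4-fold, although it was lower in pericentral than in periportal nuclei of CS (log2 -0.72 ± 0.1). Cebpb, a factor of the acute phase, rose 5-fold and Irs2, an adaptor of the insulin receptor, 7.69-fold.

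**Figure D3:**
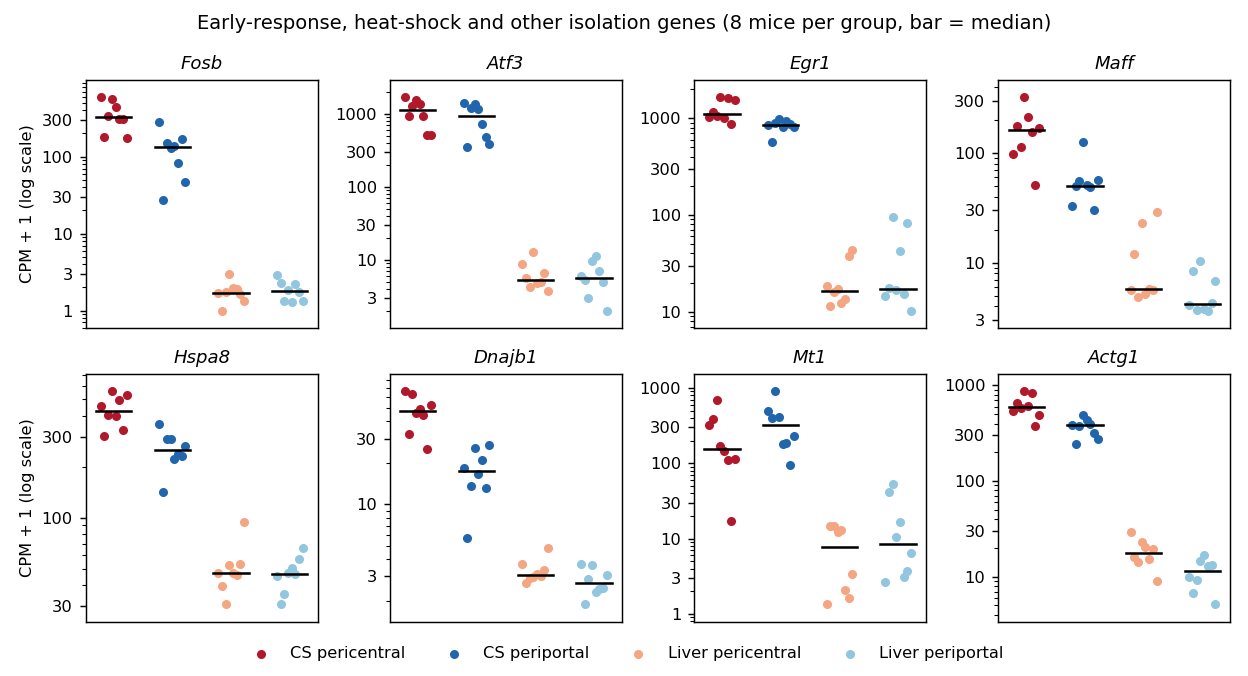
CPM plus 1 (log scale) of 8 genes in pericentral and periportal nuclei of Cell Suspension (CS) and Liver, 8 mice per group, with the median as a bar. All 8 genes lie higher in CS than in Liver, and all but Mt1 have a higher median in pericentral than in periportal nuclei of CS.

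Genes typical of the periportal zone rose in pericentral nuclei as well. Of the 18 periportal genes, 11 were higher in CS and 0 lower, with a median log2 difference of 1.25, whereas of the 26 pericentral genes 0 were higher and 4 lower (Rgn, Lect2, Slc13a3 and Slc22a3), with a median of -0.30. In this fit without a block, 8.19% of all genes were higher and 11.8% lower. With the mouse as a block 14 of the periportal genes were higher and 0 lower, and 3 of the pericentral genes were higher and 11 lower, beside 2244 and 3232 of the 20292 genes tested. Pck1 rose from 139, 626 and 1447 CPM to 1931, 3076 and 4199 CPM (log2 2.1 ± 0.31) and G6pc from 245, 674 and 1311 CPM to 2416, 3211 and 4063 CPM (log2 2.1 ± 0.26), neither with overlap. Asl rose 3.07-fold, Ass1 2.03-fold, Got1 5.21-fold and Hsd17b13 2.47-fold, the last from 7.17 to 18.1 CPM in the median and thus far below its periportal level. Fasn, the fatty acid synthase, rose from 26.2, 96.8 and 145 CPM to 432, 1022 and 1288 CPM (log2 3.46 ± 0.31), Scd1 6.45-fold and Acly 2.48-fold, and 7 of 16 lipogenic genes were higher and 0 lower. The plasma proteins fibrinogen beta (Fgb, 5.37-fold) and hemopexin (Hpx, 5.27-fold) were among 11 of 21 that rose. The endothelial markers Flt1 and Egfl7 were called higher in CS too.

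Without the block the 4 listed pericentral genes called lower were a share of their 26 near the 11.8% of all genes called lower in CS, but with the mouse as a block the 11 called lower were a larger share than that of all genes (3232 of 20292). Hcrtr2, an orexin receptor and one of the genes named for their fall by size and lack of overlap, fell from 29.3, 65.3 and 107 CPM in L to 0, 4.13 and 23.2 CPM in CS (log2 -2.74 ± 0.42, adjusted p = 6e-05) and was at 0 in mouse 7. Of the listed genes, Slc13a3 was 3.54-fold, Lect2 2.82-fold and Rgn 2.39-fold lower. Of the 18 glutathione transferases 2 were higher and 3 lower, among them Gsta3 (2.62-fold), beside 8.19% and 11.8% of all genes. Kif26b (3.02-fold) and Rcan2, an inhibitor of calcineurin (2.84-fold), were lower as well and were named by size for the difference of the change between the zones. The Wnt target Nkd1 fell from 2.34, 10.5 and 40.6 CPM to 0, 1.69 and 6.14 CPM (log2 -2.69 ± 0.64, adjusted p = 0.0038) and Znrf3 from 314, 453 and 637 CPM to 187, 293 and 423 CPM (log2 -0.64 ± 0.17). Rnf43 (log2 -0.61 ± 0.23, adjusted p = 0.064) and Axin2 (log2 -0.62 ± 0.25, adjusted p = 0.089) did not pass the test without a block, and both passed it with the mouse as a block (log2 -0.62 ± 0.10, adjusted p = 1e-06 and log2 -0.59 ± 0.13, adjusted p = 0.00019). Of 24 Wnt genes tested, 3 were higher and 2 lower without the block, beside 8.19% and 11.8% of all genes. With the block 3 were higher and 5 lower, beside 2244 and 3232 of all 20292 genes. The other genes that the rule named for their fall were not called between the zones of L, and they were the alcohol dehydrogenase Adh7 (4.05-fold), the liver factor Foxa3 (3.29-fold) and the transcripts 9030616G12Rik, 2310001H17Rik, 5031425E22Rik, Gm32063 and Gm49417 (3.17-fold to 4.21-fold).

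The CS samples of mice 1, 2 and 3 lay in pools without an L sample. With the pool as a term 2554 genes were called, of which 2286 were also called without it, and the calls of 6 named genes were lost, Nkd1 (adjusted p = 0.13), Slc13a3 (0.052), Slc22a3 (0.22), Pdk4 (0.11), Pparg (0.064) and the microsomal glutathione transferase Mgst1 (0.072), which left 2 of the 26 listed pericentral genes called lower. With the mouse as a block 5476 genes were called. The comparison with periportal nuclei of CS shares its pericentral sums with this one, and so does the next.

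Whether isolation changed the zones unequally was tested as the difference of the CS-over-L change between pericentral and periportal nuclei (edgeR, sample as a block). Of 22386 genes, 612 were called (2.73%), 395 with a larger change towards CS in pericentral nuclei (1.76%) and 217 with a smaller one (0.969%). Changes are signed here and below, so that a smaller change can be a smaller rise or a larger fall from L to CS. Irs2, which lies on chromosome 8, was even between the zones in L (38.6, 47.7 and 72.8 CPM in pericentral and 33.6, 50.7 and 67.4 CPM in periportal nuclei). In CS it stood at 296, 373 and 469.8 CPM against 98.9, 122 and 175 CPM, so that the change was 2.86-fold larger in pericentral nuclei (log2 1.52 ± 0.12, adjusted p = 7.5e-16). The zones did not overlap in CS, and its call held under every alternative run. Dlec1 stood at 37.7, 104 and 225 CPM in pericentral nuclei of CS, against 5.38, 14.9 and 30.9 CPM in periportal nuclei and 1.52, 10.3 and 15.5 CPM in pericentral nuclei of L (log2 of the difference 2.04 ± 0.19). Agt, which encodes angiotensinogen, reached 196, 331 and 596 CPM against 46.1, 111 and 168 CPM in CS, from 60.5 and 51.7 CPM in the median of L (log2 1.43 ± 0.14).

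Bcl2l11, a promoter of apoptosis known as Bim (log2 1.54 ± 0.16), the tryptophanyl-tRNA synthetase Wars (log2 1.52 ± 0.16) and Agxt (log2 1.42 ± 0.14) also had a larger change in pericentral nuclei. Like Irs2, Dlec1 and Agt, they were named by size from genes with the same direction in 8 of 8 mice, which 4.13% of all genes tested had. Among early-response genes 9 of 21 had a larger and 1 a smaller change in pericentral nuclei, with Nr4a1 (log2 1.87 ± 0.25), Gadd45g (log2 1.29 ± 0.14), Egr1 (log2 1.30 ± 0.24) and Fos (log2 1.28 ± 0.26) on the first side and Jund (log2 -0.63 ± 0.12) on the other. Within CS the zones differed by less, log2 0.47 to 0.62 for Egr1 and 0.31 to 0.49 for Fos with 1 mouse left out. Part of each change thus lay in L, where Fos was rare. From unspliced UMIs alone the CS differences turned to log2 -0.13 and -0.12, without a call. Jun (log2 -0.46 ± 0.18, adjusted p = 0.2) and Atf3 (log2 0.38 ± 0.21, adjusted p = 0.43) were not called for the difference of the change. Of 13 heat-shock genes 5 had a larger change, among them Hspa8 (log2 0.73 ± 0.12). The counts of both lists stand beside 1.76% of all genes with a larger and 0.969% with a smaller change.

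Several periportal genes differed less between the zones in CS than in L. Of the 18 periportal genes 9 had a larger change in pericentral nuclei and 0 a smaller one, as had 3 of 9 urea cycle and 3 of 8 gluconeogenic genes. Among all genes tested the shares were 1.76% and 0.969%. Ass1 was 2.29-fold lower in pericentral than in periportal nuclei of L and 1.21-fold lower in CS (log2 of the difference 0.91 ± 0.11, 8 of 8 mice). Asl went from 3.6-fold to 1.82-fold (log2 0.97 ± 0.13), Pck1 from 2.43-fold to 1.25-fold (log2 0.95 ± 0.14), Got1 from 2.37-fold to 1.3-fold (log2 0.87 ± 0.13), Hpx from 2.81-fold to 1.45-fold (log2 0.93 ± 0.13) and Fasn from 2.22-fold to 1.29-fold lower (log2 0.77 ± 0.11). G6pc, 1.57-fold lower in L, was even in CS (log2 0.65 ± 0.11). Cdh1 showed a call as well (log2 1.48 ± 0.27), but its level in pericentral nuclei of CS, 1.81, 8.79 and 15.4 CPM, stayed far from the 99.2, 140.2 and 219 CPM of periportal nuclei. From spliced UMIs alone it was not called, at log2 -0.04 with a standard error of 2.00, which is too wide to tell whether the difference held.

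Of the 26 listed pericentral genes 1 had a larger and 1 a smaller change in pericentral nuclei, beside 1.76% and 0.969% of all genes. Neither count is read as a result about the list. Among the genes named by size for a smaller change, Pparg stood at 52, 96.1 and 131 CPM in pericentral nuclei of CS and at 99.4, 131 and 167 CPM in L, while periportal nuclei went from 1.74 to 4.1 CPM in the median (log2 -1.56 ± 0.30, adjusted p = 0.00038). Sgcz (log2 -1.40 ± 0.24), AC102159.1 (log2 -2.13 ± 0.51), AC127342.1 (log2 -1.13 ± 0.32) and 1810058I24Rik (log2 -0.75 ± 0.20) changed in the same direction, as did Rcan2 (log2 -1.56 ± 0.36) and Kif26b (log2 -1.20 ± 0.32). March2 (log2 -0.68 ± 0.13) turned from 1.28-fold higher in pericentral nuclei of L to 1.25-fold lower in CS. Of 24 Wnt pathway genes tested, 3 had a smaller change and 0 a larger one, beside 0.969% and 1.76% of all genes. These 3 were Rnf43 (log2 -0.50 ± 0.11), Znrf3 (log2 -0.57 ± 0.11) and Nkd1 (log2 -2.97 ± 0.82). The receptors Ahr (log2 -0.05 ± 0.17) and Nr1i3 (log2 0.01 ± 0.23) and Cyp7a1 (log2 0.01 ± 0.22) were not called.

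**Figure D4:**
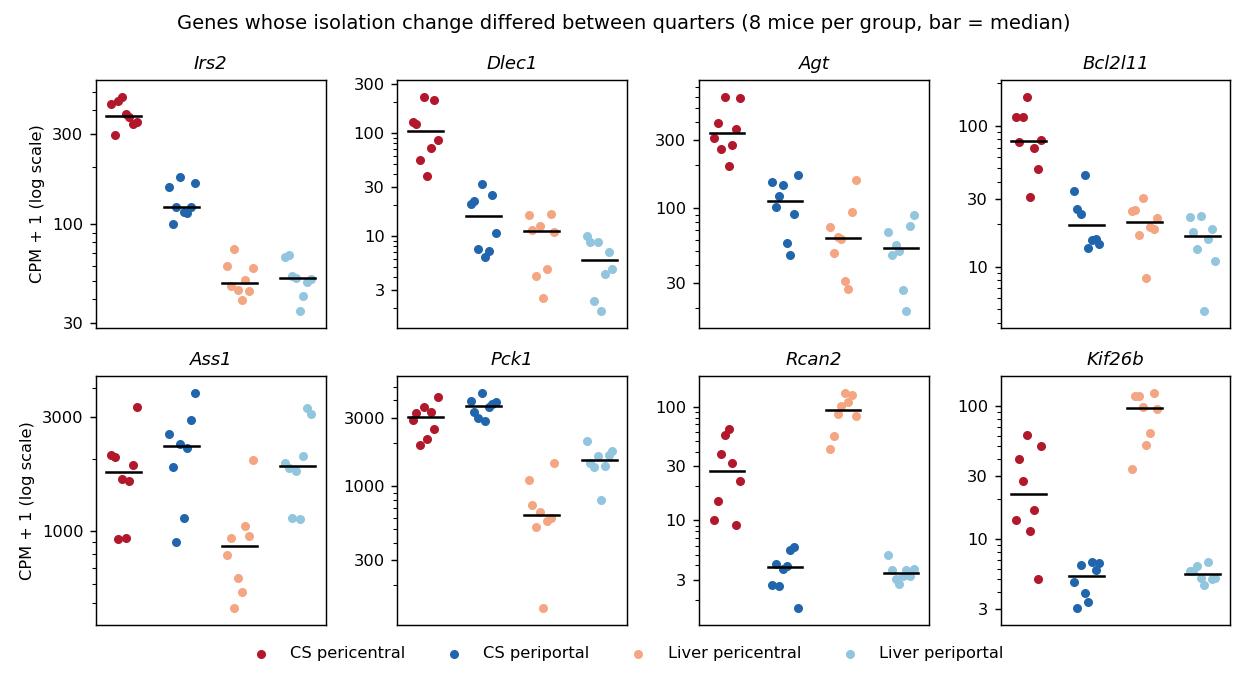
CPM plus 1 (log scale) of 8 genes in pericentral and periportal nuclei of Cell Suspension (CS) and Liver, 8 mice per group, with the median as a bar. Irs2, Dlec1, Agt and Bcl2l11 rise more in pericentral nuclei, Ass1 and Pck1 come close to their periportal level, and Rcan2 and Kif26b lose part of their pericentral level.

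These calls depended on pairing the zones within a sample. Without that block 2 genes were called, Irs2 and Wars, and 1330 had an unadjusted p under 0.05. With the mouse number as a further block within each zone 1095 were called. The calls of Fosb, Dnajb1, Kif26b, Nkd1, Pdk4 and AC127342.1 were lost under at least 5 alternatives each, and with nuclei thinned to 2000 UMIs those of Rcan2, Rnf43 and March2 were lost as well. Leaving out mouse 4 left 380 calls. The summed endothelial markers did not pass the adjusted test in this contrast (15.6 CPM ± 15.1, SD, n = 8, exact permutation p = 0.0312, adjusted p = 0.0688), but Egfl7 and Ptprb were called among them.

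Within the pericentral nuclei, Glul is known to mark the innermost layer. After thinning to 2000 UMIs, 1122 of the 2407 nuclei held a Glul UMI and 1285 did not. The split was made after the data had been seen. Glul is also a gene of the score, so that nuclei without it had entered through the other pericentral genes. An edgeR fit of the split called 52 of 15528 genes, and 0 without the mouse as a block. Its calls served only to pick genes to name, and the differences are given as a description without p-values. The 8 nuclei with a Glul UMI in mouse 7 were the fewest, and a Glul UMI was also present in 23.4% of endothelial nuclei at this depth.

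Hcrtr2 was 5.66-fold higher in nuclei with a Glul UMI (log2 2.5 ± 0.33, higher in 6 of 8 mice), Slc13a3 4.53-fold (log2 2.18 ± 0.33), the kinesin Kif26b 3.43-fold (log2 1.78 ± 0.19), Slc22a3, an organic cation transporter, 2.8-fold (log2 1.49 ± 0.19), the homeobox gene Pknox2 2.45-fold and Rcan2 2.2-fold. Pdk4 (1.91-fold) and Cyp2c38 (1.61-fold) were higher too. Some genes of urea synthesis were lower, Arg1 by 1.36-fold in 8 of 8 mice, Ass1 by 1.34-fold in 8 of 8 mice and Cps1 by 1.26-fold in 7 of 8 mice, together with Igfbp2 (1.36-fold) and the iron hormone Hamp (1.26-fold). Cyp7a1 (log2 -0.02 ± 0.08), Esrrg (log2 0.16 ± 0.07) and Ahr (log2 0.20 ± 0.08) differed by less.

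Hcrtr2, Slc13a3, Kif26b, Rcan2, Slc22a3 and Pknox2, all higher in nuclei with a Glul UMI, were called lower in the pericentral nuclei of CS than in those of L, while Arg1, Ass1 and Cps1 were higher there by log2 0.76 (adjusted p = 0.089, and 2.8e-10 with the mouse as a block), 1.02 and 0.82. Pdk4, also higher with a Glul UMI, stood at 21.3, 61.4 and 385 CPM in CS against 0.917, 6 and 36.7 CPM in L and was higher after isolation in 8 of 8 mice (log2 3.39 ± 0.68). Both comparisons contain the same CS nuclei, and these genes were picked from the split after the data had been seen. How many other genes called in the split went the same way against L was not counted. No joint pattern is therefore read from them. The share of pericentral nuclei with a Glul UMI itself was 43.3% in CS and 34.5% in L in the median.

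**Figure D5:**
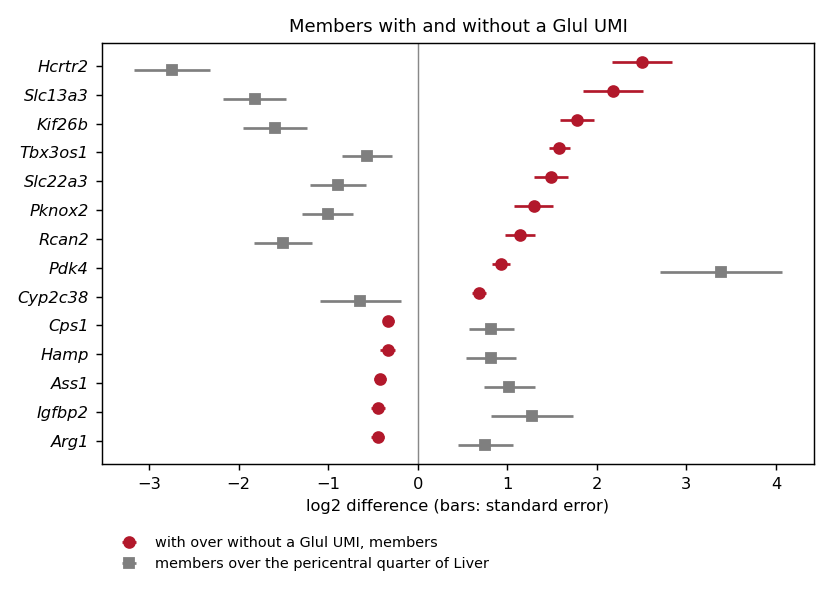
Log2 differences with standard errors for 14 genes, as circles between pericentral nuclei of Cell Suspension with and without a Glul UMI, and as squares between all pericentral nuclei of Cell Suspension and of Liver. Leaving aside Tbx3os1, whose reads cannot be told apart from those of Tbx3, the 6 of these 14 picked genes with the largest difference by Glul, from Hcrtr2 to Rcan2, lie between 1.14 and 2.5 on the first and between -2.74 and -0.89 on the second measure.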

How the data were processed

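Nuclei were sequenced in 6 droplet pools of 4 hashtagged samples. The deposited matrices hold UMI counts per barcode and gene, spliced, unspliced and ambiguous, that the authors made with Salmon Alevin on GRCm38 after bcl2fastq 2.19.0. The deposited table of singlet nuclei gives each nucleus its sample, cell type and cluster as the authors assigned them, with the hashtag margin as a fraction. Hashtag assignments written CD2 (1402 nuclei) were read as CS of mouse 2. Of 32285 genes, 32106 had a symbol.

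The members and gene lists were chosen with earlier results of these data known. UMIs were summed per mouse and zone without the 16 score genes. Genes with at least 10 counts were fitted with edgeR 4.0.16 (R 4.3.3, TMM, quasi-likelihood, Benjamini-Hochberg adjusted p under 0.05). The comparison within CS had mouse as a block, CS against L had none, and the difference of both changes had sample as a block. CPM are TMM-scaled over all 32 sums. DESeq2 1.42.0, RLE scaling, other filters, thinning, spliced or unspliced UMIs alone, a pool term and leaving out each mouse were tried. Summed measures were compared by two-sided exact sign-flip permutation over 8 mice (smallest p 0.00781, scipy 1.17.1), adjusted over 11 measures.

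Named genes were the list members and, per comparison, the 8 largest rises and 8 largest falls among called genes of at least 50 CPM with 1 direction in 8 of 8 mice (CS against L: without overlap). The L comparison, the Glul split and further named genes were added after seeing the data. Same-numbered L and CS pericentral sums deviated together (correlation 0.33 to 0.708 over 7852 genes, all 8 above 0.1), and the study took both from 1 animal, so numbers pair the samples. On simulated counts the fits recovered 99%, 77% and 72% of 100 genes changed 2-fold in the 3 comparisons (17647, 19769 and 21975 genes). The changed genes were drawn only from well-counted genes and no mouse effect was simulated, so that recovery of low-count genes was not measured. Values of single genes withheld from this text are not reported here.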

Additional observations from a re-analysis of the deposited data

Results flagged for a closer look

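Of 44 sets of 8 values tested for a sample far from the others, 4 held one, where chance gives about 1 in 20. In pericentral nuclei of Cell Suspension these were Cyp2c38 in mouse 3 (1301.6 CPM, median 303), Cyp7a1 in mouse 6 (730.3 CPM, median 229.7), UMIs per nucleus in mouse 3 (12634, median 3999.5) and the mitochondrial share in mouse 1 (0.297%, median 0.113%). Without mouse 3 the log2 difference of Cyp2c38 between the zones stayed called.

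The change from Liver to Cell Suspension differed between pericentral and periportal nuclei, by a test of the difference itself, for the following named genes (log2, positive where it was larger in pericentral nuclei). It was larger for Dlec1 (2.04), Nr4a1 (1.87), Fosb (1.64), Bcl2l11 (1.54), Wars (1.52), Irs2 (1.52), Cdh1 (1.48), Agt (1.43), Agxt (1.42), Egr1 (1.30), Gadd45g (1.29), Fos (1.28), Pdk4 (1.22), Dnajb1 (1.18), Asl (0.97), Pck1 (0.95), Hpx (0.93), Ass1 (0.91), Got1 (0.87), Fasn (0.77), Hspa8 (0.73) and G6pc (0.65). It was lower, by a smaller rise or a larger fall in pericentral nuclei, for Nkd1 (-2.97), AC102159.1 (-2.13), Rcan2 (-1.56), Pparg (-1.56), Sgcz (-1.40), Kif26b (-1.20), AC127342.1 (-1.13), 1810058I24Rik (-0.75), March2 (-0.68), Jund (-0.63), Znrf3 (-0.57) and Rnf43 (-0.50). The same difference was -2648.4 for UMIs per nucleus and -8.00 percentage points for the unspliced share, each with an exact permutation adjusted p of 0.0688 over 11 measures, so that neither passed the adjusted test. Their causes were not tested.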

How the results depend on the processing

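Genes called between pericentral and periportal nuclei of Cell Suspension numbered 3652, and 1270 without the replicate block, 1918 from spliced UMIs, 1765 with sums thinned to the smallest, and 2900 to 3744 with 1 mouse left out. Against Liver they numbered 4048, and 2640 with nuclei thinned to 2000 UMIs, 2554 with pool as a term, 1522 with sums thinned to the smallest (56% higher against 41.1%), 5476 with the replicate block and 3217 to 3759 with 1 mouse left out. For the difference of the isolation change they numbered 612, and 365 at 4000 UMIs or more, 2 without the replicate block, 313 with thinned nuclei, 1095 with the replicate block by mouse and zone, 238 from spliced and 405 from unspliced UMIs, 134 with sums thinned to the smallest, 380 without mouse 4, and 380 to 672 with 1 mouse left out. Of these calls 64.5% were higher, against 78.3% with RLE scaling, 80% at 4000 UMIs, 37.7% in the upper part of the hashtag margin, 86.6% with thinned sums, 53.6% with the block by mouse and zone, 76.3% from unspliced UMIs and 79.7% without mouse 2.

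Of 11 measures per nucleus 4 were called, and 0 at 4000 UMIs, 2 with zones chosen after thinning and 0 with any 1 mouse left out, where the smallest exact p is 0.0156. The unspliced share differed by -2.44 points at 4000 UMIs, -5.90 with zones chosen after thinning and -8.36 to -6.49 with 1 mouse left out. UMIs per nucleus turned to 300.5 at 4000 UMIs.

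Directions that turned had no call: G6pc between zones (log2 -0.022 thinned, -0.046 unspliced, -0.015 by hashtag margin, -0.036 to 0.065 with 1 mouse left out), Egr1 (-0.13) and Fos (-0.12) unspliced, Pparg against Liver (0.42 spliced), and in the isolation change Dnajb1 (-0.0059 thinned) and Cdh1 (-0.038 spliced). With 1 mouse left out stellate markers ranged from -0.449 to 2.396 CPM, leukocyte markers from -0.101 to 1.19 and erythrocyte markers from -0.229 to 0.286. Of the named genes' values in other settings, 904 of 930 between zones, 622 of 654 against Liver and 365 of 473 for the isolation change kept direction and call. The causes were not tested.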
